A study of Homo sapiens with 5 samples.

Results

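The genes described here are those of the core binding factor and its name-sharing relatives, which were RUNX1 (ENSG00000159216), RUNX2 (ENSG00000124813), RUNX3 (ENSG00000020633), CBFB (ENSG00000067955), CBFA2T2 (ENSG00000078699) and CBFA2T3 (ENSG00000129993). They were selected by symbol, by a rule that names no measured value but was set with earlier results of these data known, and all 6 were found among the 56632 gene identifiers of the tables. RNA immunoprecipitation followed by sequencing (RIPseq) recovers a protein with an antibody and sequences the RNA that comes with it, and the input is RNA taken from such cells before immunoprecipitation. All 5 libraries came from MCF10A, a non-tumorigenic and established human cell line derived from breast epithelium. From an MCF10A line expressing FLAG-tagged CBFB there were 1 input and 1 RIP with a FLAG antibody. From parental MCF10A cells there were 1 input and 2 RIP repeats with an hnRNPK antibody. The comparisons ask how far the transcripts of these genes were recovered with CBFB and with hnRNPK.

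No treatment, time or further allele was given for any group, and the labels do not say whether the FLAG line kept its endogenous CBFB. For another assay the study describes a stable CBFB knockout line of MCF10A that expresses FLAG-tagged CBFB. Whether that line was used for RIPseq was not given. In the FLAG line sequenced here, the reads of the CBFB gene can come from the transgene or from the endogenous gene. The gene totals do not separate them. No mock immunoprecipitation was analysed here, and nothing states that the hnRNPK repeats came from separate cultures, so p-values measure only the spread between these libraries, which may be technical.

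Core binding factor is a heterodimer. Its alpha subunit, RUNX1, RUNX2 or RUNX3, binds DNA through the Runt domain. Its beta subunit, CBFB, does not touch DNA itself but strengthens that binding. RUNX1 is best known from blood formation and is also expressed in breast epithelium, RUNX2 drives bone formation, and RUNX3 acts in T cells, sensory neurons and gastrointestinal epithelium. CBFA2T2 and CBFA2T3 belong to the ETO family of corepressors, which bind NCOR and SIN3 complexes and do not bind CBFB as RUNX proteins do. hnRNPK is an RNA-binding protein whose KH domains prefer runs of cytosines.

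Because of that preference, the 30-nt stretch with the most cytosines in the longest coding transcript of each gene is shown, with every run of 3 or more C in capitals. Coordinates are those of GENCODE 29 on GRCh38, a newer build than the hg19 named in the submitters' processing notes, and the sequence is given 5′ to 3′ on the transcript.
RUNX1: CCCCtaaccaCCCCCgCCCCCCCCCaCCCC
RUNX2: tcttCCCtccaCCCtcactccaaccaCCCC
RUNX3: CCCCgCCCCCtctCCCCCCCgcggaCCCCC
CBFB: tgCCCgcgcaagCCCCgagcgcggccggcc
CBFA2T2: cctcacctCCCaccatgccaCCCCtCCCac
CBFA2T3: ccacaCCCCCCagcatgccgCCCCCaccgc

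The RUNX1 stretch lies in exon 1, in the 5′ UTR, at chr21:34887238-34887267 on the minus strand, within a gene spanning chr21:34787801-36004667. It holds 24 cytosines in 30 nt, a number that 0.549% of 18929 protein-coding genes reach or exceed in their own richest stretch, and its longest run is 9. The RUNX2 stretch lies in the 3′ UTR in exon 8, at chr6:45549893-45549922 on the plus strand, and that of RUNX3 in the 3′ UTR in exon 6, at chr1:24900871-24900900 on the minus strand. The CBFB stretch lies in the 5′ UTR in exon 1, at chr16:67029356-67029385 on the plus strand, and holds 15 cytosines, where the median gene reaches 18. The CBFA2T2 stretch is coding, in exon 4 at chr20:33607022-33607051 on the plus strand, and so is that of CBFA2T3, in exon 2 at chr16:88901555-88901584 on the minus strand.

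Over the whole transcript the genes also differed in how often runs of 3 or more C occur. CBFB had 5.42 runs per kb and 18.5% cytosine, and only 5.74% of protein-coding genes had fewer runs per kb. These values are for its longest coding transcript, of 3136 nt, while its mean transcript length in these libraries was between 1155 and 2323 nt. Runs in the shorter annotated transcripts were not counted. RUNX1 had 15.8 runs per kb, RUNX2 had 12.6 and CBFA2T2 had 12.8, all close to the median of 13.7. RUNX3 had 27.0 and CBFA2T3 had 27.7 runs per kb, above 90.7% and 92.0% of genes. The poorest transcript in such runs was therefore that of the beta subunit, and the richest were the 2 transcripts that were hardly detected in these cells. Across 10512 genes within these libraries, runs per kb and enrichment had a Spearman rho of 0.21 for hnRNPK and 0.25 for FLAG-CBFB, given as a description because genes share libraries and base composition.

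The study also cut RUNX1 into fragments for binding assays in vitro, and used 1 of them in translation assays as well. That fragment was placed here by listed primers named for the translation vector, not for the vector of the binding assays. Between these primers it lies in the 3′ UTR in the last exon at chr21:34789228-34789411 on the minus strand. It is shown through its most C-rich 30 nt, at chr21:34789323-34789352, because the runs lie close together there.
RUNX1 3′ UTR fragment: tCCCtCCCtctcttCCCCCCaatatctCCC
The stretch from primer to primer, both included, is 184 nt. That is shorter than the fragment length given in the study, a difference that was not resolved. The stretch holds 8 runs of 3 or more C, the longest of 6, and is 35.9% cytosine against 24.8% for the whole RUNX1 transcript. The RIPseq tables give values per gene, so they do not show which stretch of RUNX1 was recovered.

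Library totals ran from 69786576 to 106855647 expected counts (reads assigned by RSEM, which shares a read among the genes it matches). Mitochondrial genes took 4.27% and 11.2% of the counts of the inputs, 62.2% of the FLAG-CBFB RIP and 84.5% and 86.6% of the hnRNPK RIPs. The keratin KRT5, a marker of basal breast epithelium, stood at 1974 and 1640 FPKM in the inputs, and all 8 basal markers were detected. The basal keratin KRT14 was low, at 6.78 and 1.81 FPKM. Of 5 luminal markers 3 were analysed, with KRT18 at 305.47 and 701.82 FPKM, KRT8 at 76.63 and 195.77 and GATA3 at 6.17 and 6.40, so both keratins were higher in the parental input. ESR1 stood at 0.71 and 0.67 FPKM and PGR at 0. Of 6 blood cell markers none exceeded 0.03 FPKM in an input. Over 11764 analysed genes the mean log2 ratio of a RIP to its input was -1.34 for FLAG-CBFB and -2.61 and -2.68 for the hnRNPK repeats. The enrichments below are log2(FPKM + 1) of the RIP minus its own input, centred on these means, and a gene is called enriched above 2, or 4-fold. FPKM is reads per kilobase of transcript, scaled to the depth of the library, and analysed genes averaged 1 FPKM or more across the 5 libraries. Intervals on levels and ratios are 95% exact counting intervals and cover counting error only.

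RUNX1 was the main RUNX transcript of these cells. The FLAG-CBFB line had RUNX1 at 14.12 FPKM (9003 counts) before and 25.1 FPKM (13542 counts) after immunoprecipitation. Parental cells had it at 10.41 FPKM (3317 counts) in the input, against 17.3 (10777 counts) and 12.2 FPKM (6526 counts) in the hnRNPK RIPs. RUNX1 was thus higher in each RIP than in its own input, in libraries where the average gene was lower. It made up between 87.4% and 94.4% of the summed RUNX FPKM in every library.

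The share of all reads that fell on RUNX1 was 1.77 times that of the input in the FLAG-CBFB RIP (1.72 to 1.82), and 2.20 (2.12 to 2.29) and 1.52 times (1.45 to 1.58) in the hnRNPK RIPs. After centring, the enrichment of RUNX1 was 2.13 for FLAG-CBFB, from 1 library per arm and hence with no test. For hnRNPK it was 3.29 and 2.89, a mean of 3.09 ± 0.28 (SD, n = 2 repeats against 1 input). It lay above 96.1% of analysed genes for FLAG-CBFB and above 96.4% for hnRNPK. In edgeR's quasi-likelihood test of the counts of both hnRNPK RIPs against the parental input, RUNX1 rose by a log2 fold change of 4.67 (adjusted p = 8.21e-26), where the median gene was at -0.12. Counts are not divided by transcript length, and the effective length of RUNX1 was higher by 0.41 and 0.37 on the log2 scale in the hnRNPK RIPs. With mitochondrial genes taken out before scaling, the enrichment of RUNX1 was 2.34 for FLAG-CBFB and 3.88 for hnRNPK.

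RUNX2 followed the same direction at a far lower level. The FLAG-CBFB line had 0.84 FPKM (458 counts) in its input against 2.15 (1002 counts) in its RIP. The parental input had 0.67 (222 counts), against 2.49 (1317 counts) and 0.87 FPKM (403 counts) in the hnRNPK RIPs. Both hnRNPK RIPs were above their input, but the repeats were unequal, with RUNX2 in repeat 1 at 2.87 times its read share in repeat 2 (2.57 to 3.22).

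The read share of RUNX2 was 2.57 times that of the input with FLAG-CBFB (2.30 to 2.88), and 4.02 (3.48 to 4.65) and 1.40 times (1.19 to 1.66) with hnRNPK. Its enrichment was 2.12 for FLAG-CBFB and 3.67 and 2.84 for hnRNPK (3.26 ± 0.59, SD, n = 2). Before centring these values were 0.78, 1.06 and 0.16. On the log2(FPKM + 1) scale a gene at 0.67 FPKM cannot fall as far as the mean gene did. Centring alone therefore put RUNX2 near 2 for hnRNPK. The gap of 0.83 between the repeats was wider than that of 97.4% of analysed genes. RUNX2 passed the filter only through the RIP libraries, since its mean was 1.40 FPKM over the 5 libraries and 0.755 over the inputs, so its position among the analysed genes is a description. In the edgeR test, which filters on counts, RUNX2 rose by a log2 fold change of 5.18 (adjusted p = 2.03e-25).

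RUNX2 overlaps SUPT3H, a gene of the SAGA complex on the opposite strand, which had between 583 and 1126 counts a library. The strand setting of the counting was not given in the sources used here, so reads of the shared stretch cannot be assigned with certainty to either gene. The difference in enrichment between RUNX2 and RUNX1 was -0.01 for FLAG-CBFB, and 0.38 and -0.05 for the hnRNPK repeats. No order of these alpha subunits could be given, because the sign differed between the repeats.

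RUNX3 had 0 counts in all 5 libraries. At 3 counts, taken as the smallest signal a library can show, its level would have been between 0.014 and 0.0213 FPKM, so RUNX3 was not detected at this depth and no ratio was formed.

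**Figure D1:**
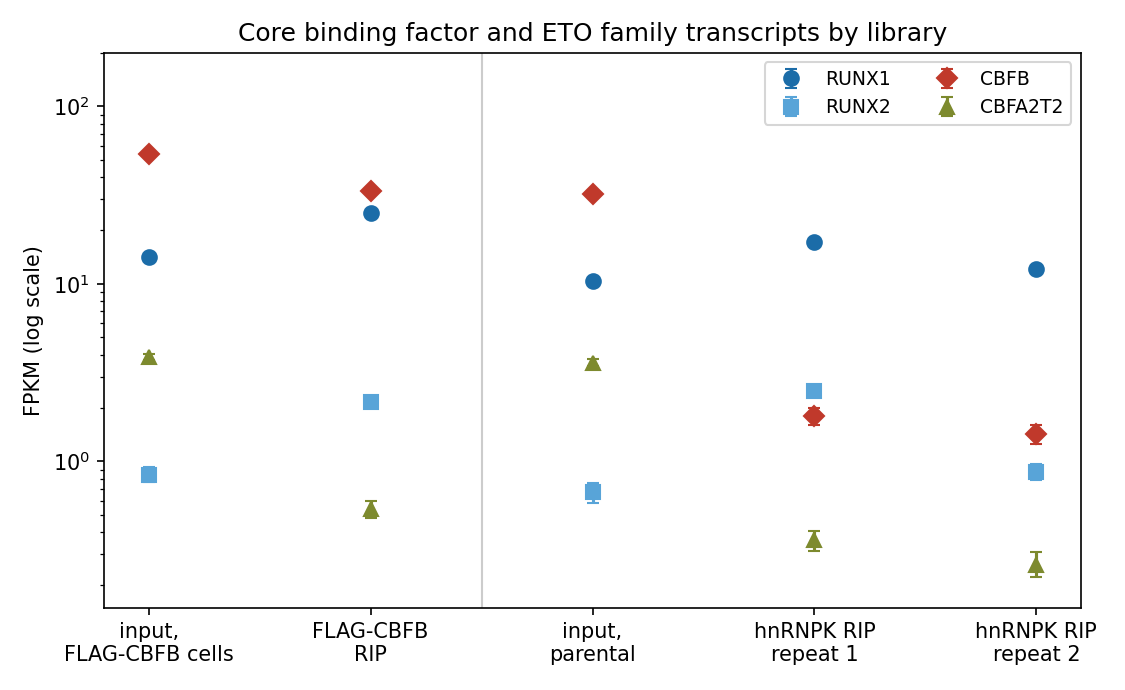
FPKM (log axis) of RUNX1, RUNX2, CBFB and CBFA2T2 in each of the 5 libraries, with 95% counting intervals as bars where they exceed the symbol. RUNX1 and RUNX2 sit higher in each RIP than in its input, while CBFB and CBFA2T2 sit lower, and in the hnRNPK RIPs RUNX1 (17.3 and 12.2) lies above CBFB (1.80 and 1.42).

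CBFB, the beta subunit, was the most abundant of the 6 transcripts in both inputs and took a different course from its RUNX partners. The FLAG-CBFB line had 53.91 FPKM (6573 counts) in its input, and 33.54 (3015 counts) in its RIP. The parental input had 32.24 FPKM (2810 counts), against 1.80 (338 counts) and 1.42 FPKM (277 counts) in the hnRNPK RIPs. CBFB was thus lower in every RIP than in its own input, mildly with FLAG-CBFB and strongly with hnRNPK.

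The read share of CBFB was 1.85-fold lower in the FLAG-CBFB RIP than in the input (ratio 0.539, 0.517 to 0.563). It was 12.3-fold lower in hnRNPK repeat 1 (ratio 0.0815, 0.0726 to 0.0912) and 13.2-fold lower in repeat 2 (ratio 0.0760, 0.0669 to 0.0860). Relative to the mean gene, the enrichment was 0.67 for FLAG-CBFB, above 87.3% of analysed genes, and -0.96 and -1.10 for hnRNPK (-1.03 ± 0.10, SD, n = 2), above 24.5% of them. A value above 0 with FLAG-CBFB and below 0 in both hnRNPK repeats was found for 960 of 11764 genes, or 8.16%.

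The count test gave another position for CBFB. Its log2 fold change in the hnRNPK RIPs was 0.12 (edgeR, adjusted p = 0.835), which did not pass the threshold. FPKM divides by effective length, and the effective length of CBFB was higher by 0.55 and 0.79 on the log2 scale in the hnRNPK RIPs. The log2 ratio of FPKM was accordingly -4.16 and -4.50 and that of read shares -3.62 and -3.72. On counts scaled by TMM factors, CBFB stood above 62.6% of analysed genes, so whether its transcript was below or above the typical gene depended on the scale.

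The comparison of RUNX1 with CBFB within a library does not depend on centring. The enrichment of RUNX1 exceeded that of CBFB by 1.46 for FLAG-CBFB and by 4.25 and 3.99 for hnRNPK (4.12 ± 0.18, SD, n = 2). This difference was also taken under a smaller pseudocount, other scalings, read counts and the opposite input. It then lay between 1.14 and 1.71 for FLAG-CBFB and between 4.44 and 4.73 for hnRNPK. RUNX1 FPKM divided by CBFB FPKM gave 0.262 before and 0.748 after FLAG-CBFB immunoprecipitation, and 0.323 in the parental input against 9.61 and 8.59 in the hnRNPK RIPs. CBFB made up 74.1% and 68.7% of the summed FPKM of the 6 genes in the inputs and 8.20% and 9.62% in the hnRNPK RIPs, where RUNX1 made up 78.8% and 82.7%.

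CBFA2T2, a corepressor of the ETO family, was present at a low level in both inputs and lower in every RIP. The FLAG-CBFB line had 3.87 FPKM (2475 counts) in its input, against 0.54 (339 counts) in its RIP. The parental input had 3.60 (1650 counts), against 0.36 (229 counts) and 0.26 FPKM (158 counts) in the hnRNPK RIPs. Its read share was 6.21-fold lower than in the input with FLAG-CBFB and 10.6- and 13.5-fold lower with hnRNPK, where the last 2 values were near those of CBFB.

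The centred values of CBFA2T2 were -0.32 for FLAG-CBFB and 0.85 and 0.81 for hnRNPK (0.83 ± 0.03, SD, n = 2). The positive hnRNPK values came with an uncentred log2(FPKM + 1) ratio of -1.76 and -1.87, and on that scale a gene at 3.60 FPKM cannot fall as far as the mean gene did. The FLAG-CBFB value was -1.07 with a pseudocount of 0.1 and -0.94 with TMM-scaled counts, where CBFA2T2 lay above 5.08% and 5.93% of analysed genes in place of 38.5%. With a pseudocount of 0.1 the hnRNPK mean was 0.26, and in the edgeR test the log2 fold change was 0.20 (adjusted p = 0.721). The enrichment of RUNX1 exceeded that of CBFA2T2 by 2.45 for FLAG-CBFB and by 2.26 ± 0.26 (SD, n = 2) for hnRNPK. With a pseudocount of 0.1, other scalings, read counts or the opposite input, this difference lay between 2.77 and 3.46 for FLAG-CBFB and between 1.94 and 4.45 for hnRNPK.

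CBFA2T3 was at the limit of detection, with 7 counts in the input of FLAG-CBFB cells, 3 in the FLAG-CBFB RIP, 0 in the parental input, then 3 in each hnRNPK RIP. Its read share in the FLAG-CBFB RIP was 0.504 times that of the input, with an interval from 0.0841 to 2.21 that spans no difference. It was too weak for a centred value and was not tested.

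Of the 6 genes, 4 averaged 1 FPKM or more, and 2 of these, RUNX1 and RUNX2, were enriched above 2 for FLAG-CBFB, where 4.37% of analysed genes were. RUNX2 entered this count only through the RIPs in which it was high, and on the inputs alone 3 genes would have averaged 1 FPKM or more, so the counts are a description and support nothing. The same 2 were above 2 for hnRNPK, against 8.2% of analysed genes, and they were so in both repeats, against 7.31%. For RUNX2 this was nearly fixed by the scale, since a gene this weak cannot fall as far as the mean gene did. Of analysed genes 3.79% were above 2 for both proteins. In the edgeR test, 2 of 4 tested genes were higher in the hnRNPK RIPs, against 21.9% of 16639 genes tested, and none was lower, against 15.8%. DESeq2 called the same 2 genes higher, against 19.7% of 16186 genes, and 10.6% lower. At an unadjusted p under 0.05 edgeR called 0 of them lower, and DESeq2 called 0 lower after adjustment. The FLAG-CBFB values of RUNX1 and RUNX2 lay just above the threshold of 2, and without centring, or with centring over all genes, no gene of the set exceeded it for either protein. The spread in the count test came from the 2 hnRNPK RIPs alone, since there was 1 parental input.

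**Figure D2:**
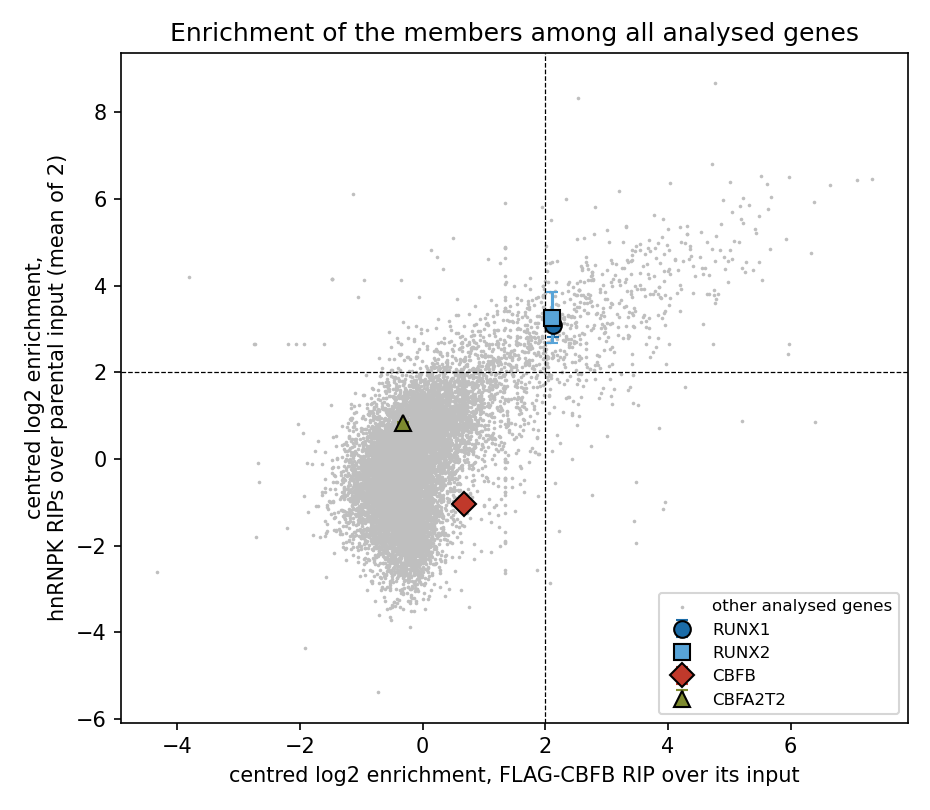
Centred log2 enrichment of each analysed gene (grey points) for FLAG-CBFB (RIP over input, x axis) and in the hnRNPK RIPs over the parental input (y axis, mean of 2 repeats), with 4 named genes in colour and bars for the SD of the repeats. RUNX1 and RUNX2 nearly coincide past both dashed thresholds of 2, CBFB lies at 0.67 and -1.03, and CBFA2T2 at -0.32 and 0.83.

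The order of levels changed from library to library. In both inputs it was CBFB, RUNX1, CBFA2T2 and RUNX2, and in the FLAG-CBFB RIP RUNX2 (2.15 FPKM) passed CBFA2T2 (0.54 FPKM). In the hnRNPK RIPs RUNX1 came first and CBFA2T2 last of the detected genes. RUNX2 and CBFB changed places between the repeats there, at 2.49 and 1.80 FPKM in repeat 1 and 0.87 and 1.42 FPKM in repeat 2, so their order was not separated from the spread between repeats. GAPDH, which the study used as a transcript that is not bound, had an enrichment of -0.18 for FLAG-CBFB and -2.69 ± 0.04 (SD, n = 2) for hnRNPK, below RUNX1 by 2.31 and 5.78.

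Before immunoprecipitation the cell lines already differed in some of these genes. The input of FLAG-CBFB cells held 1.53 times the parental read share of CBFB (1.46 to 1.60), 1.77 times that of RUNX1 (1.70 to 1.85) and 1.35 times that of RUNX2 (1.15 to 1.59). CBFA2T2 was at 0.980 times (0.920 to 1.04), within counting error of the parental line. In FPKM, which divides by effective length, the ratio of RUNX1 was 1.36. Its effective length was higher by 0.39 on the log2 scale in the input of FLAG-CBFB cells. On the centred FPKM scale the input difference was 0.75 for CBFB, 0.44 for RUNX1, 0.17 for RUNX2 and 0.11 for CBFA2T2, and 19.3% of analysed genes exceeded 0.5. With 1 input per line the difference between lines and that between libraries cannot be told apart.

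The deposited tables also give each gene a mean transcript length, weighted by the abundance of its annotated transcripts, and for CBFB this length differed between libraries. For the FLAG-CBFB line it was 1313 nt in the input against 1155 nt in the RIP, and for parental cells 1410 nt in the input against 1995 and 2323 nt in the hnRNPK RIPs. CBFB was therefore shorter by 12.0% with FLAG-CBFB and longer by 41.5% and 64.8% with hnRNPK. An increase at least as large in both hnRNPK RIPs was found for 3.15% of 7644 genes with at least 100 counts in these libraries, and a decrease at least as large with FLAG-CBFB for 8.45% of 10897.

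For RUNX1 the library that stood apart was the parental input. Its length was 4726 nt there and between 6079 and 6216 nt in the other 4 libraries, the other input included. The RUNX1 length was thus 31.5% and 28.6% higher in the hnRNPK RIPs than in their input, and 9.18% of genes were raised at least as far in both repeats, but the input of FLAG-CBFB cells was also 29.9% longer than the parental input. An input difference that large was found for 9.81% of 11284 genes. RUNX2 varied between 4936 and 5308 nt. CBFA2T2 was 15.4% longer in the FLAG-CBFB RIP than in its input, with 8.51% of genes at least as far up, and it changed by -5.26% and 1.01% with hnRNPK. These lengths rest on RSEM's split of reads among annotated transcripts, and with 1 input per line no test was run.

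**Figure D3:**
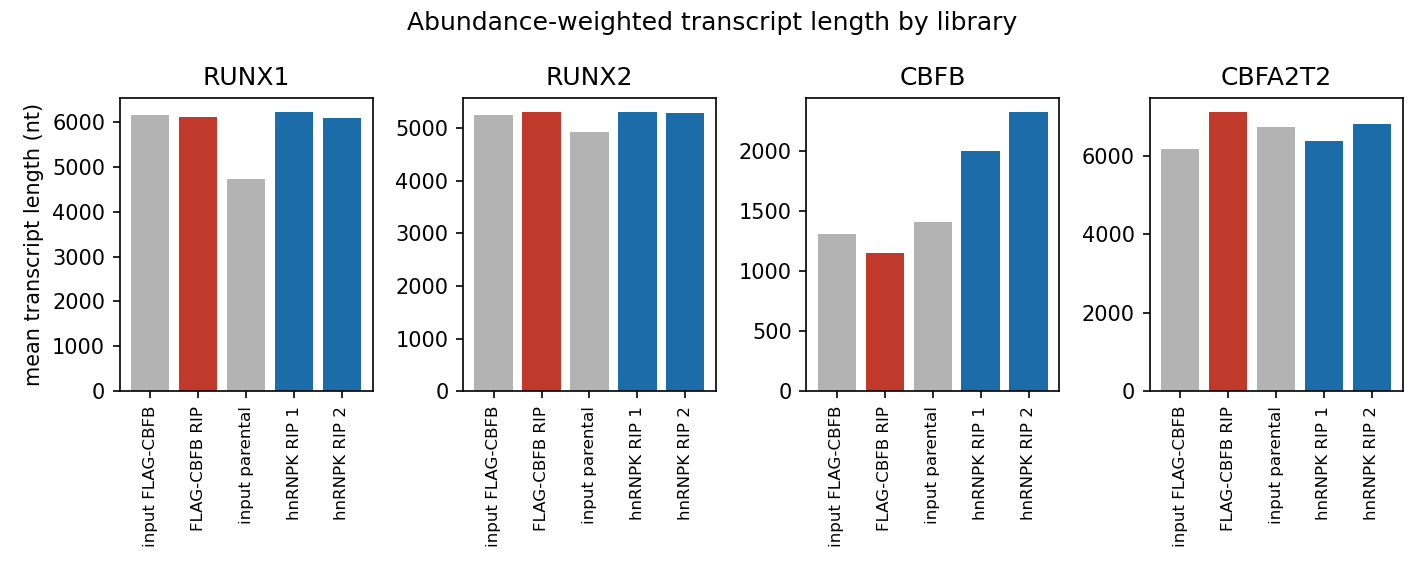
Abundance-weighted mean transcript length (nt, bars from 0, one scale per gene) of RUNX1, RUNX2, CBFB and CBFA2T2 in each library, inputs in grey, the FLAG-CBFB RIP in red and the hnRNPK RIPs in blue. CBFB is longest in the hnRNPK RIPs (1995 and 2323 nt), and RUNX1 is shortest in the parental input (4726 nt).

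Genes with levels most like RUNX1 over the 5 libraries, by Euclidean distance between log2(FPKM + 1) values, were PLPPR2 (0.264), SSBP3 (0.307), PRICKLE3 (0.307), IRF2 (0.446) and HDAC10 (0.546). Their enrichment ran from 1.70 to 2.40 for FLAG-CBFB, and all 5 exceeded 2 in both hnRNPK repeats, against 7.31% of analysed genes. The nearest to CBFB were BLOC1S2 (0.737), ATP6V1D (0.746), ARL6IP5 (0.761), CAMLG (0.800) and ATP2C1 (0.888). These neighbours were farther off than those of RUNX1, and their enrichment for FLAG-CBFB, between -0.36 and 0.21, was below the 0.67 of CBFB, while their hnRNPK values were all negative. The neighbours were picked on the same 5 libraries from which the enrichments were formed, so a likeness in enrichment follows from the choice. Each likeness is over 5 libraries only.

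Partner genes of the RUNX proteins and of the ETO family were described through a list of 39, of which 37 were analysed. TAL1, a basic helix-loop-helix factor of blood cells, and RUNX1T1, the third ETO family gene, were at 0 FPKM in all 5 libraries. No partner exceeded 2 for FLAG-CBFB, against 4.37% of analysed genes, and 3 did for hnRNPK, against 8.2%. The median enrichment was -0.23 for FLAG-CBFB and 0.13 for hnRNPK, where all analysed genes had -0.19 and -0.11. In the edgeR test 16 of 37 (43.2%) were higher in the hnRNPK RIPs, against 21.9% of all genes tested, 5 (13.5%) were lower, against 15.8%, and 16 did not pass. DESeq2 called 13 higher, against 19.7% of all genes, and 5 lower, against 10.6%. The genes lost in DESeq2 were TLE4 (adjusted p = 0.130), SIN3B (adjusted p = 0.0692) and CDK6 (adjusted p = 0.104). These genes were named after their values were seen.

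Among the coactivators, EP300, a histone acetyltransferase that acts with RUNX proteins, had 3.86 FPKM before and 4.40 and 3.62 FPKM after hnRNPK immunoprecipitation. Its enrichment was 2.68 ± 0.11 (SD, n = 2) and it rose by a log2 fold change of 3.83 (edgeR, adjusted p = 2.33e-18). PRMT1, an arginine methyltransferase that methylates RUNX1, had 191.38 FPKM before, against 6.69 and 5.72 afterwards. Its enrichment was -2.10 ± 0.09, and its log2 fold change was -1.32 (edgeR, adjusted p = 6.57e-04). Of the 8 coactivators, 4 were higher (50.0%, against 21.9% of all genes) and 1 was lower (12.5%, against 15.8%).

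The Groucho family genes and SUV39H1 were listed together as RUNX corepressors, without regard to whether each gene acts as one. Of these 6 genes, 4 were higher by edgeR, against 21.9% of all genes, and 3 by DESeq2, against 19.7%. None was lower by edgeR at the adjusted threshold, against 15.8% of all genes, and 0 by DESeq2, against 10.6%. At an unadjusted p under 0.05 edgeR also had 0 lower. With 6 genes, none lower is near these shares. TLE4 was the gene lost, and against the opposite input its log2 fold change was 0.07 (edgeR, adjusted p = 0.926). TLE2 had the highest hnRNPK enrichment of this group, 1.67 ± 0.14, and TLE3 the lowest, -0.12 ± 0.04 (SD, n = 2 for both). TLE2 had 2.42 FPKM in the parental input, and a gene this weak cannot fall as far as the mean gene did. By edgeR's log2 fold change the order differed, with SUV39H1 (2.67) above TLE2 (2.20) and TLE1 (-0.74) below TLE3 (0.08). Of the 10 genes of the NCOR and SIN3 complexes, 4 were higher by edgeR, against 21.9% of all genes, and 3 were lower, against 15.8%. DESeq2 called 3 higher, against 19.7%, and 3 lower, against 10.6%. HDAC1, a histone deacetylase of these complexes, had 65.13 FPKM before, against 2.02 and 1.85 afterwards, with a log2 fold change of -1.39 (edgeR, adjusted p = 3.69e-04).

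Of the 7 tested partners that bind DNA or belong to DNA-bound complexes, 2 were higher (28.6%) and 1 was lower (14.3%). These shares were near the 21.9% and 15.8% of all genes. ZBTB16, a zinc finger repressor also called PLZF, had an hnRNPK enrichment of 2.34 ± 0.58, with repeats as far apart as 2.76 and 1.93, and ELF1, an ETS factor, had -0.86 ± 0.14 (SD, n = 2 for both). Among 6 genes that modify RUNX proteins or set their turnover, 2 were higher by edgeR, against 21.9% of all genes. DESeq2, where CDK6 was lost, called 1 higher, against 19.7%. CDK6 was also lost against the opposite input (edgeR, adjusted p = 0.577). None of the 6 was lower by edgeR, against 15.8% of all genes, and 0 by DESeq2, against 10.6%. At an unadjusted p under 0.05 edgeR also had 0 lower. With so few genes, none lower is near these shares. HIPK2, a kinase that phosphorylates RUNX1, had the highest enrichment of that group at 1.60 ± 0.07, and STUB1, a ubiquitin ligase of RUNX1, the lowest at -1.26 ± 0.13 (SD, n = 2 for both). RUNX1 at 4.67 and RUNX2 at 5.18 had larger log2 fold changes than any of the 37 tested partners, of which ZBTB16 had the largest at 3.95. The ranking rested on the input used, since against the input of the FLAG-CBFB line EP300 was at 4.15, above RUNX1 at 3.91, RUNX2 was at 4.82 and ZBTB16 was at 2.61.

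**Figure D4:**
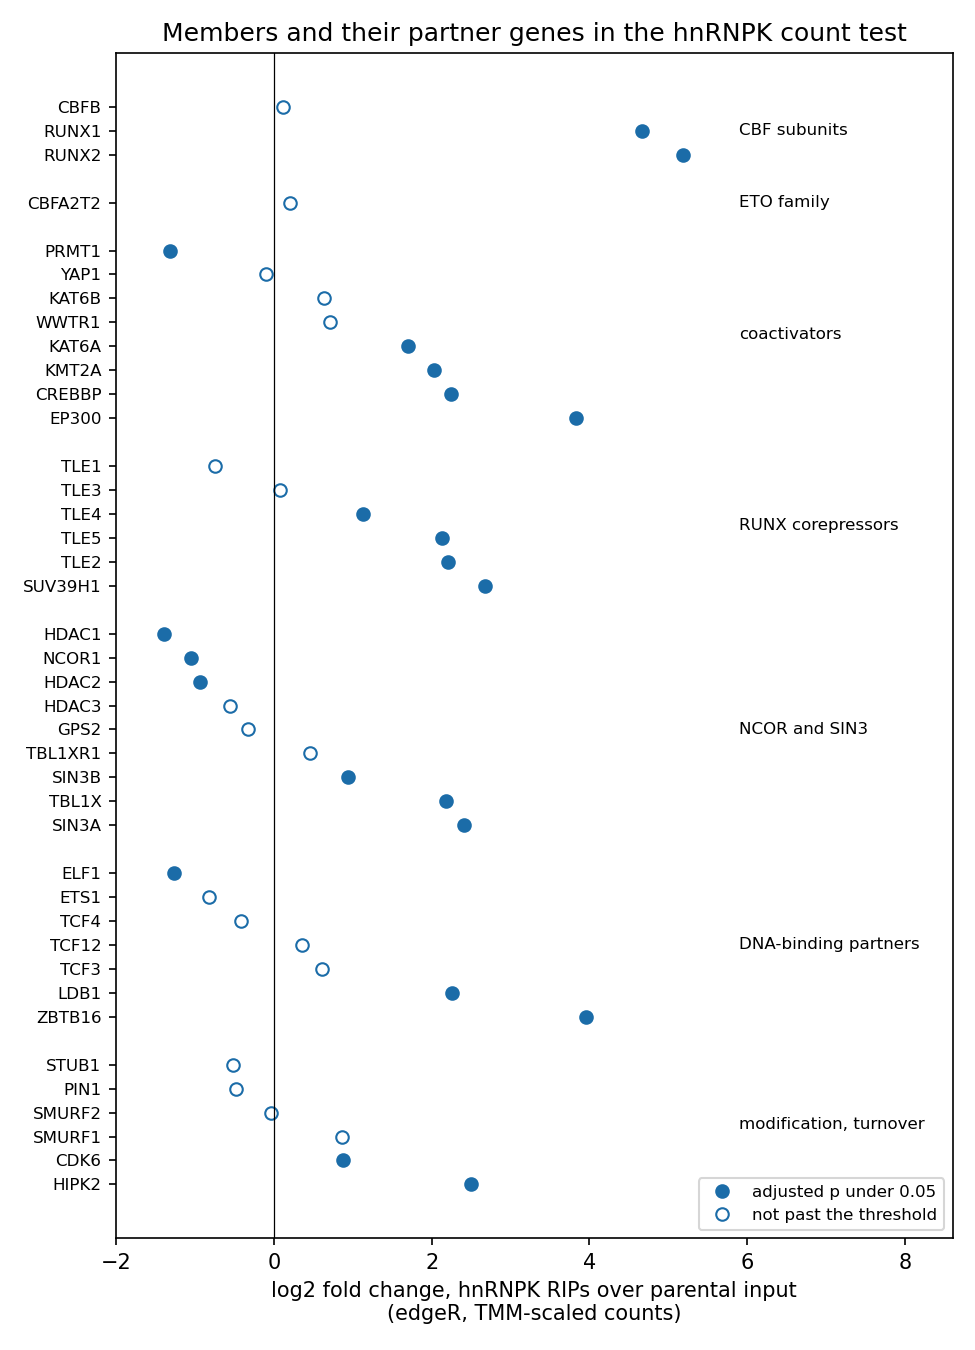
Log2 fold change of the hnRNPK RIPs over the parental input (x axis, edgeR on TMM-scaled counts) for the tested members and 36 of the 37 tested partner genes (y axis, grouped by role), with filled points where the adjusted p was under 0.05. RUNX1 (4.67) and RUNX2 (5.18) lie to the right of every partner plotted, the highest of which is ZBTB16 (3.95), and CBFB (0.12) and CBFA2T2 (0.20) lie near 0.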

How the data were processed

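RIPseq libraries of MCF10A cells were analysed (5 in all). The authors deposited RSEM tables, and per the file headers each gene had an expected count, which can be shared among genes and need not be whole, an FPKM value and a mean transcript length in nt, listed here as another unit. Per the labels' processing notes, Trimmomatic, STAR, RSEM and hg19 were used, with versions and strand setting not given in the sources used here. Depth ran from 69786576 to 106855647 counts. Groups came from sample titles.

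Each RIP was set against its own input as centred log2(FPKM + 1), over genes averaging 1 FPKM or more, with a threshold of 2. Fold changes on this scale understate the change of weak genes before centring. Expected counts were rounded and tested with edgeR 4.0.16 in R 4.3.3 (TMM, filterByExpr, quasi-likelihood test, Benjamini-Hochberg over all genes, threshold 0.05), and DESeq2 1.42.0 was an alternative, as were other pseudocounts, centrings, scalings, filters and the opposite input. The edgeR step was run on simulated data with equal numbers of genes raised and lowered. That setting lacks the shift in composition of the RIP libraries, so it does not show how the test behaves on them. Count intervals were exact (95%, scipy 1.17.1), and 3 counts served as the floor.

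The genes and lists were chosen with earlier results of these data known. The 6 members, GAPDH, the highest and lowest hnRNPK enrichment in each partner group, and the 5 nearest patterns to RUNX1 and CBFB were named. TAL1, RUNX1T1, SUV39H1, TLE1, TLE4, SIN3B, CDK6, SUPT3H and the epithelial markers were named beyond this rule, after their values were seen. The highest gene of 1 partner group is not reported here.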

Additional observations from a re-analysis of the deposited data

Results flagged for a closer look

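The centred enrichment of CBFB had opposite signs for the 2 proteins. With FLAG-CBFB it was 0.67, whereas the hnRNPK repeats gave -0.96 and -1.10, a difference of 1.70 between the FLAG-CBFB value and the hnRNPK mean. That difference was not tested, since FLAG-CBFB had 1 library per arm.

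CBFA2T2 went the other way, at -0.32 with FLAG-CBFB, whereas the hnRNPK repeats gave 0.85 and 0.81, a difference of -1.15. This difference was not tested either, and in read shares CBFA2T2 was lower than its input in all 3 RIPs. A gene at 3.60 FPKM cannot fall as far as the mean gene did, so the scale fixed the positive hnRNPK sign. The opposite signs therefore show nothing about recovery. Over 11 alternatives the hnRNPK mean stayed positive in 8 and was negative in 3. One of the 3 was TMM-scaled counts, at -0.09, where FLAG-CBFB gave -0.94.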

How the results depend on the processing

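The count of 2 genes above 2 moved with the scale. For FLAG-CBFB it was 0 without centring, 1 with FPKM scaled to an equal geometric mean, 0 with centring over all genes and 1 with genes of at least 5 FPKM. For hnRNPK it was 0, 0 and 1 without centring, over all genes and over genes of at least 5 FPKM, where RUNX2 was not among the genes, and it ranged from 2 to 2 with either repeat left out. RUNX1 ranged from 0.79 to 2.60 for FLAG-CBFB over 10 alternatives (8 above 2) and from 0.45 to 4.61 for hnRNPK over 12 (10 above 2). RUNX2 ranged from 0.78 to 3.13 (6 of 9 above 2) and from 0.61 to 4.97 (9 of 11 above 2). The input difference of CBFB was 0.61 with TMM factors and 0.55 with DESeq2 size factors. The hnRNPK enrichment of CBFB was 0.08 with DESeq2 size factors and -0.18 with TMM factors, and its FLAG-CBFB enrichment was -0.67 without centring and -0.35 over all genes. The hnRNPK enrichment of CBFA2T2 was -1.81 without centring, -1.20 over all genes and -0.09 with TMM factors. In the count test the log2 fold change of CBFB was -0.10 without a filter, -0.43 against the opposite input and -0.026 with all 5 libraries, and that of CBFA2T2 was -0.013 without a filter. RUNX1 stayed between 3.91 and 4.83 and RUNX2 between 4.33 and 5.67 there. Alternatives for the partners, chosen after seeing the data, gave 7 above 2 for hnRNPK with a pseudocount of 0.1, 0 without centring and 6 with TMM factors. The share of all genes above 2 was not taken on these scales, so these counts cannot be read against 8.2%. Where no cause follows from the construction, the cause was not tested. The median of all genes was -1.53 and -2.75 without centring and -0.10 and -0.60 with TMM factors. No paired analysis was possible because no group shares more than 1 replicate number with another. Weak genes limit the reading, since RUNX2 had 222 counts in the parental input.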
